A study of Mus musculus with 12 samples.

Results

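The genes described here are 10 that mark fibroblasts of the heart: Pdgfra, Ddr2, Tcf21, Postn, Dpt, Dcn, Lum, Fbln1, Fbn1 and Loxl1. They were examined for chromatin binding of Meis1 and Hoxb13 in the mouse ventricle. Meis1 is a transcription factor with a TALE homeodomain, and Hoxb13 is a Hox protein of the posterior group. Every peak that the authors had assigned to one of these gene symbols was taken, which gave 25 of the 30534 Meis1 peaks and 18 of the 22284 Hoxb13 peaks, or 43 of 52818 peaks in all. The chromatin was from hearts of the outbred CD-1 strain taken on postnatal day 15, ventricles only, with no genotype or treatment stated. The 12 libraries were 3 Meis1 precipitates, 3 Hoxb13 precipitates, and for each factor 3 inputs, which are sheared chromatin with no antibody. By the protocols each heart's chromatin was shared out between the antibodies, although the titles number the factors' libraries separately. Each deposited list covers the 3 precipitates of its factor, with no value per heart and no read count, so depth was unknown and no spread or test between hearts was possible. Whole ventricle was used, so a peak at a fibroblast gene cannot be placed in fibroblasts or in any other cell of the heart, and no RNA was measured.

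Cardiac fibroblasts build and maintain the matrix between the muscle cells. They sense growth factors and collagen through receptor tyrosine kinases such as Pdgfra and Ddr2. They arise largely from the epicardium under the transcription factor Tcf21, and they secrete collagens together with proteins that organise the fibres. Of the genes described, Postn, Dpt, Dcn and Lum encode proteins that bind collagen or steer its assembly, while Fbln1, Fbn1 and Loxl1 belong to elastic fibres and microfibrils.

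All 10 genes had at least 1 assigned Meis1 peak, where 38.2% of the 21887 protein-coding genes had one. Hoxb13 peaks were assigned to 9 of the 10, against 44.4% of protein-coding genes, and Ddr2 was the gene without one. Both factors were thus assigned to 9 of 10, against 23.9% of protein-coding genes. A Meis1 peak was in the promoter class, meaning within 1 kb of a start site, at 1 gene, Dpt (10% of the markers, against 8.16% of protein-coding genes). Hoxb13 promoter peaks were present at 4 genes, Pdgfra, Dcn, Fbn1 and Loxl1, where 30.7% of protein-coding genes had one. Promoter shares of both factors were thus near those of all genes. The genes were chosen with earlier results of these lists known, and these counts are descriptions.

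How near and how strong the peaks were changed the counts. With peaks within 10 kb of the assigned start, Meis1 was present at 5 of the 10 genes (Pdgfra, Dpt, Dcn, Fbn1 and Loxl1), where 19.5% of protein-coding genes had such a peak. Hoxb13 was present within that distance at 8 of the 10, against 35.8% of protein-coding genes, the exceptions being Ddr2 and Dpt. In the stronger 50% of each list the balance turned. Meis1 was still present at all 10 genes, against 28% of protein-coding genes, and Hoxb13 at 4 (Pdgfra, Dcn, Fbn1 and Loxl1), against 29.7%. Counting any peak in the gene body or 10 kb on either side, whatever gene it was assigned to, Meis1 was present at 8 genes, against 39.1% of protein-coding genes, without Postn and Lum. Hoxb13 was then present at all 10, against 52.8%.

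Promoter sequence of 300 bases (250 before and 50 after the start, RefSeq, GRCm38.p6) was at hand for 7 of the 10 genes, in 9 windows. Dcn, Lum and Loxl1 had no window, so the Hoxb13 promoter peaks of Dcn and Loxl1 were not covered. The Hoxb13 promoter peak of Pdgfra lay outside its window. A peak reached into the window at Dpt and at Fbn1, and those windows are shown because they carry part of the promoter binding described below. Capitals mark the bases that lie inside the peak, which is a Meis1 peak at Dpt and a Hoxb13 peak at Fbn1. The Dpt window is chr1:164796413-164796712 on the plus strand, and the Fbn1 window is chr2:125506389-125506688, read on the minus strand.
Dpt: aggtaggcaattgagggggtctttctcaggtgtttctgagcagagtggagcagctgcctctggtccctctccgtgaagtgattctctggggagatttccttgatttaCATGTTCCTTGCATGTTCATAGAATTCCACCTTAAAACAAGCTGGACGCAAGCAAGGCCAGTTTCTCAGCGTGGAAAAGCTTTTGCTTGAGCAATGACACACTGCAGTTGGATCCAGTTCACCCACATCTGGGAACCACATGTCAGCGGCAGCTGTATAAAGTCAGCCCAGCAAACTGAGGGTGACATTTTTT
Fbn1: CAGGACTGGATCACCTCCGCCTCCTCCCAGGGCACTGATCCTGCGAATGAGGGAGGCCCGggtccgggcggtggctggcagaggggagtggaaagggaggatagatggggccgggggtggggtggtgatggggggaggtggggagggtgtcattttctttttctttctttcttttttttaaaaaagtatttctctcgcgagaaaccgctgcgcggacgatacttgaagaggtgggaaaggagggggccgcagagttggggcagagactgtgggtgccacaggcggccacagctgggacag
At Dpt the Meis1 peak covered 193 of the 300 bases, including the start site. At Fbn1 the Hoxb13 peak covered 60 bases at the far upstream end, and the rest of it extended away from the gene.

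Short motifs were searched on both strands of all windows. TGACAG, the core letters of Meis1 sites, was present in 19.2% of 32851 promoter windows and in 1 of the 9 windows of the marker genes, that of Pdgfra, where it spans the start site of the window. CAATAAA, letters of posterior Hox sites, was present in 4.60% of windows and in those of Ddr2 and Fbln1. TGATTTA, letters of joint TALE and Hox sites, was present in 2.97% of windows and in those of Dpt and Fbln1. In the Dpt window printed above it occupies bases 101 to 107, and the Meis1 peak begins at base 108. The Fbn1 window and those of Postn and Tcf21 held none of the motifs. Each match is only a run of letters and is not a measured site.

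Pdgfra encodes the alpha receptor for platelet-derived growth factor, on which cardiac fibroblasts depend. It had 2 Meis1 peaks, with strengths of 26.8 and 21.1, where strength is the authors' deposited signal value per peak and ranks peaks within a list. They lay 10.0 and 8.75 kb upstream of the assigned start (mm10 chr5:75141998-75142281 and chr5:75143263-75143546), inside the long noncoding gene Gm19583. Its Hoxb13 peak (strength 22.0, chr5:75156267-75156662) was on the other side, 101 bp past the start of a shorter transcript and within the gene. The closest summits of the factors were 13.1 kb apart.

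Ddr2 encodes a collagen receptor. Its assigned Meis1 peak (strength 24.8, chr1:170056301-170056584) lay in intron 1 of 16, at 32.4 kb from the start. Counting by gene body in place of assignment, Ddr2 also held 2 weak Meis1 peaks (strengths 15.6 and 16.4, in intron 15 and exon 9) and a Hoxb13 peak (strength 18.4, in intron 16). The authors had assigned these to 3110045C21Rik, whose start was nearer. The absence of Hoxb13 at Ddr2 therefore holds for the assigned gene and not for the gene body.

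Tcf21 encodes the basic helix-loop-helix factor needed for fibroblast formation from the epicardium. With 6 Meis1 peaks it had more than any other marker, a number that 4.32% of protein-coding genes had or exceeded. The strongest (strength 51.8, rank 2382, chr10:22981888-22982171) lay 162 kb upstream. Peaks with strengths of 17.8, 17.4 and 20.1 lay 231, 247 and 260 kb upstream, and 1 of strength 25.3 lay 48.5 kb upstream. The gene itself is short, at 2.88 kb, and held no peak of either factor. The 4 peaks beyond 100 kb were nearer to the body of Eya4, which encodes a transcriptional coactivator with phosphatase activity, than to that of Tcf21. They were the only peaks among the 43 whose nearest protein-coding body was another gene. On the far side of Tcf21, a Meis1 peak (strength 16.9, 10.3 kb from the start) and the single Hoxb13 peak (strength 19.1, 8.01 kb) had summits 2.21 kb apart, both beyond the gene's 3' end.

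Postn encodes periostin, a matricellular protein that activated fibroblasts secrete. Its Meis1 peak was strong (60.0, rank 1917) and narrow, at 89 bp (chr3:54478129-54478217). It lay 117 kb from the start and 87.1 kb past the gene's end, where Postn was still the nearest protein-coding gene. The Hoxb13 peak (strength 21.1, chr3:54362312-54362707) was in exon 2 of 22, at 1.21 kb from the assigned start. Summits of these 2 peaks were 116 kb apart, farther than the closest summits at any other marker with both factors.

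Dpt encodes dermatopontin, a small matrix protein that binds decorin and promotes collagen fibril assembly. It carried the strongest Meis1 peak among the markers, of strength 119 and rank 646, at 25.8 kb upstream (chr1:164770729-164770894). Next came a peak of strength 62.9 at 3.42 kb upstream (chr1:164793026-164793309) and a peak of strength 40.4 in intron 2 of 3. The peak over the start site, in the promoter printed above, was weak by comparison, with a strength of 16.6 and rank 23345. The remaining peak (strength 17.7) lay 126 kb upstream. At least 5 Meis1 peaks were assigned to 5.67% of protein-coding genes. The single Hoxb13 peak at Dpt (strength 19.8, rank 14747) was 3.41 kb past the gene's end, and the nearest Meis1 summit was 18.4 kb away.

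Dcn and Lum encode decorin and lumican, small leucine-rich proteoglycans that bind collagen fibrils, and they are neighbours on chromosome 10 with 47.3 kb between them. At Dcn, a Hoxb13 peak of strength 20.9 (chr10:97479530-97479925) began 30 bp past the start of the longer transcript, and a peak of strength 19.0 (chr10:97482151-97482546) lay over the start of a shorter transcript. Meis1 was found upstream, in peaks of strength 26.7 at 9.72 kb and of strength 15.9 at 15.1 kb from the start. Past the 3' end of Dcn, in the gap to Lum, peaks of the factors overlapped. The Meis1 peak there (strength 24.4, rank 7637, chr10:97523455-97523738) and the Hoxb13 peak (strength 22.3, rank 9766, chr10:97523213-97523608) shared 154 bp, with summits 186 bp apart. That site was the strongest of the 3 Hoxb13 peaks of Dcn and lay 5.05 kb past the gene.

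Lum had 1 peak of each factor. The Meis1 peak (strength 21.2, chr10:97554626-97554909) was 10.6 kb upstream and the Hoxb13 peak (strength 21.3, chr10:97569426-97569821) in intron 2 of 2. Kera and Epyc, which encode the related proteoglycans keratocan and epiphycan and are on the list of that family below, had 0 assigned peaks of either factor.

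Fbln1 encodes fibulin-1, a glycoprotein of basement membranes and elastic fibres. Both its Meis1 peaks were inside the gene and 1.79 kb apart, in intron 5 (strength 33.9, chr15:85230126-85230409) and intron 7 (strength 36.5, chr15:85231912-85232195) of 14. They ranked 4428 and 3939, above the list's median strength of 18.7. The Hoxb13 peak was in intron 1 (strength 20.7, chr15:85210807-85211202), 4.80 kb past the start and 19.3 kb from the nearer Meis1 summit.

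Fbn1 encodes fibrillin-1, the main building block of microfibrils. It showed the reverse balance of Tcf21 and Dpt, with 1 Meis1 peak and 6 Hoxb13 peaks, a number of Hoxb13 peaks that 2.05% of protein-coding genes had or exceeded. The strongest Hoxb13 peak (strength 28.3, rank 4780, chr2:125506629-125507024) was the promoter peak shown in the sequence above, and it was also the strongest Hoxb13 peak at any of the markers. A weaker promoter peak (strength 18.4, chr2:125505909-125506304) lay 134 bp inside the gene. The other 4 ranged from 17.9 to 18.7 in strength, close to the list's minimum of 17.8, in introns 4, 5 and 6 of 65 and at 7.14 kb upstream. The Meis1 peak was in intron 2 (strength 20.7, chr2:125501640-125501923), with a Hoxb13 summit 4.33 kb away. A second Meis1 peak in intron 50 of Fbn1 (strength 23.8) had been assigned to Dut.

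Loxl1 encodes a lysyl oxidase-like enzyme that crosslinks elastin. It had 3 peaks of each factor within or just past a gene of 25.5 kb. Hoxb13 was found at the promoter (strength 25.4, rank 6641, chr9:58312615-58313010), in intron 1 (strength 23.7) and downstream of the gene (strength 18.7). The Meis1 peaks were in introns 1, 1 and 2, with strengths of 21.5, 24.4 and 15.9. In intron 1 the factors overlapped by 197 bp, with the Meis1 peak at chr9:58310296-58310579 and the Hoxb13 peak at chr9:58310097-58310492. Summits there were 143 bp apart. The overlap covered 69.4% of the Meis1 peak and 49.7% of the Hoxb13 peak.

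**Figure D1:**
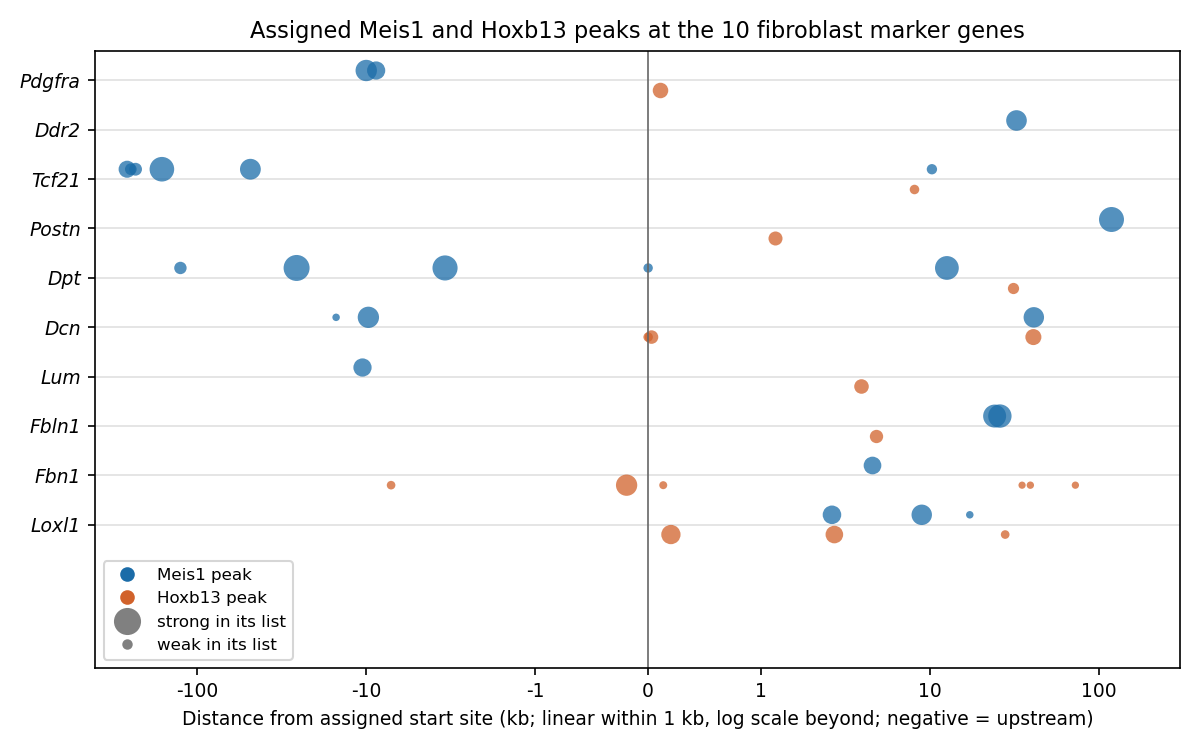
Assigned peaks at the 10 genes by distance from the assigned start site, in kb on an axis that is linear within 1 kb and logarithmic beyond, with Meis1 in blue above Hoxb13 in orange on each gene's line. Larger points rank higher in their own list; Hoxb13 points lie at or near the start at Pdgfra, Dcn, Fbn1 and Loxl1, and the 4 strongest Meis1 peaks, at Dpt, Postn and Tcf21, lie outside the genes.

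Placed together, the 25 Meis1 peaks were intergenic in 14 cases (56.0%, against 54.9% of the list), intronic in 10 (40.0%, against 33.4%) and in a promoter in 1 (4.00%, against 6.73%). Their median distance to the assigned start was 17.2 kb, where that of the whole list was 58.2 kb. Distances ran from 0 at Dpt to 260 kb at Tcf21, and 6 of the 25 were beyond 100 kb. The 18 Hoxb13 peaks were in promoters in 6 cases (33.3%, against 40.3% of the list), in introns in 6 (33.3%, against 23.4%) and intergenic in 4 (22.2%, against 25.3%), with 1 in an exon and 1 downstream of a gene. Their median distance was 4.36 kb, where the list had 4.55 kb, and none of the 18 was beyond 72.4 kb. The shares in each class thus stayed within 10 percentage points of the list's for both factors.

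Strength separated the factors at these genes, each read within its own list. Of the Meis1 peaks 18 of 25 (72.0%) were stronger than the list's median, and 4 were among the strongest 10%, at Dpt (2 peaks), Postn and Tcf21. Those 4 also held the highest score the Meis1 list contains, a value shared by 3170 peaks. Of the Hoxb13 peaks 5 of 18 (27.8%) were stronger than the list's median of 21.4, and 0 were among the strongest 10%. The 5 were at Fbn1, Loxl1 (2 peaks), Dcn and Pdgfra. The strongest Meis1 and the strongest Hoxb13 peak fell at different genes, Dpt and Fbn1.

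**Figure D2:**
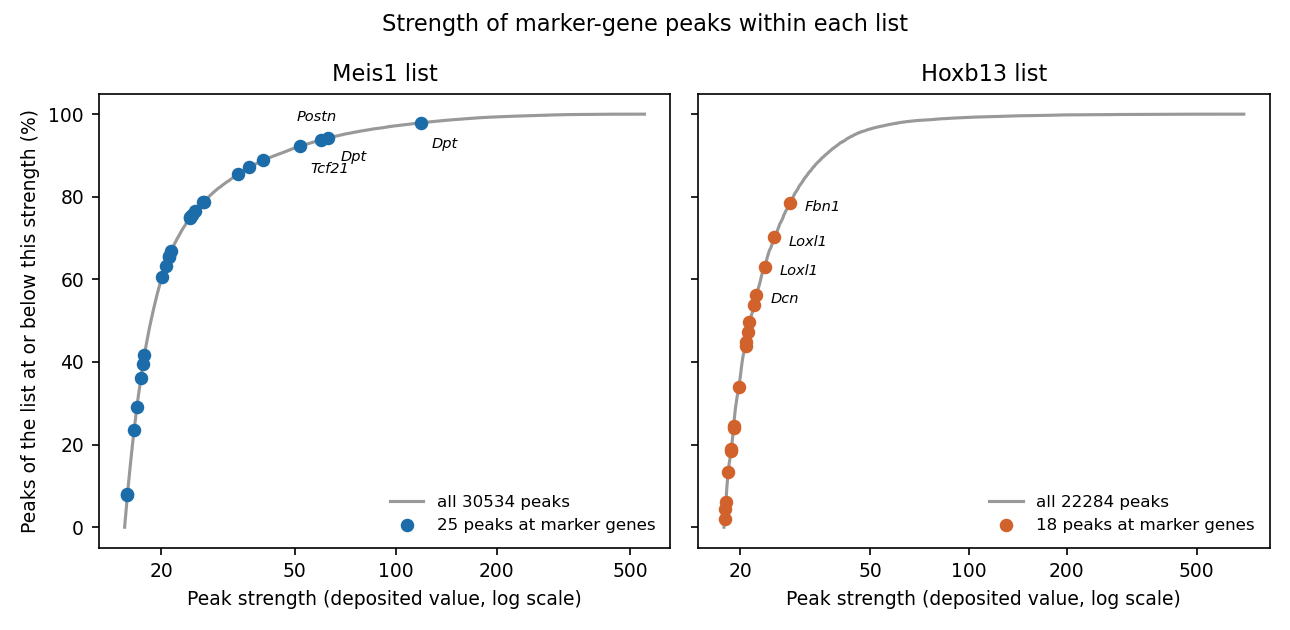
Deposited peak strength on a log axis against the percentage of each list at or below it, with the whole list as a grey line and peaks of the marker genes as points, for Meis1 (left) and Hoxb13 (right). Meis1 points reach 119 at Dpt, and Hoxb13 points end at 28.3 at Fbn1 in a list that extends to 697.

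Among the other marker lists, peaks at 10 cardiomyocyte genes such as Myh6, Ryr2 and Ttn were stronger than the list's median in 34 of 40 cases for Meis1 (85.0%) and in 116 of 188 for Hoxb13 (61.7%). At 10 endothelial genes the counts were 12 of 19 (63.2%) for Meis1 and 21 of 40 (52.5%) for Hoxb13. Ttn alone held 93 of the 188 Hoxb13 peaks of the cardiomyocyte list. Smooth muscle and pericyte genes had 7 of 9 (77.8%) for Meis1 and 7 of 14 for Hoxb13. Low Hoxb13 shares like that of the fibroblast markers were also found for mesenchymal transcription factors (5 of 16 peaks, 31.2%), the platelet-derived growth factor and discoidin receptor list (4 of 13, 30.8%) and epicardial markers (2 of 6, 33.3%). The Meis1 shares of those lists were 14 of 29 (48.3%), 4 of 22 (18.2%) and 0 of 3. Among families of the markers described below, lysyl oxidase genes had 4 of 4 for Meis1 and 0 of 3 for Hoxb13. Leucine-rich proteoglycan genes had 2 of 2 and 0 of 1. The 74 related matrix and fibroblast genes described below had 72 of 142 (50.7%) for Meis1 and 50 of 115 (43.5%) for Hoxb13. Differences between the lists were not tested.

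An overlapping pair of Meis1 and Hoxb13 peaks was present at 2 of the 10 genes, Dcn and Loxl1 (20.0%), where 5.89% of protein-coding genes had one. Only a gene with peaks of both factors can have a pair. Among such genes, 2 of the 9 markers had one, where 1290 of 5223 protein-coding genes did. With 2 genes the share of the markers is only roughly known. A pair was also present at 6 of 10 cardiomyocyte, 3 of 10 endothelial and 1 of 10 smooth muscle and pericyte markers. Epicardial and leukocyte markers had 0. A summit of the other factor lay within 5 kb of 4 of 25 Meis1 peaks (16.0%, against 15.4% of the list) and of 5 of 18 Hoxb13 peaks (27.8%, against 25.4%). These shares were close to those of the lists. The median distance to the other factor's nearest summit was shorter at the markers, at 19.3 kb for their Meis1 peaks, against 61.1 kb for the list, and at 12.9 kb for their Hoxb13 peaks, against 20.2 kb. Neither difference was tested.

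Most of the genes have large loci, which bears on how many peaks a nearest-start assignment gives them. Locus size, taken as the gene with 0.5 of the space on either side up to the next protein-coding gene, had a median of 195 kb for the markers and 46.5 kb for all protein-coding genes. It ranged from 48.0 kb for Lum to 342 kb for Dcn. The gene body made up 139 of 155 kb at Ddr2 and 206 of 248 kb at Fbn1, but 2.88 of 187 kb at Tcf21. All genes were divided into 10 equal strata by locus size. In the stratum to which each marker belongs, the share with a Meis1 peak was 34.5% for that of Lum and Loxl1, and up to 78.3% for that of Dcn. For Hoxb13 it was 42.6% to 65.0%. Within its own stratum, the 3 Meis1 peaks of Loxl1 were matched or exceeded by 3.70% of genes, and the 6 Meis1 peaks of Tcf21 by 5.39%. The share was 9.05% for the 5 of Dpt, 26.8% for the 2 of Fbln1 and 34.5% for the 1 of Lum. It was 40.8% for the 2 of Pdgfra and 57.2% for the 3 of Dcn. The 6 Hoxb13 peaks of Fbn1 were matched or exceeded by 3.97% of genes in its stratum, the 3 of Loxl1 by 6.86% and the 3 of Dcn by 25.6%. Single Hoxb13 peaks were matched or exceeded by 42.6% (Lum), 51.5% (Fbln1) and 55.5% (Pdgfra, Tcf21, Postn and Dpt). The single Meis1 peaks of Ddr2, Postn and Fbn1 were ordinary for their size, since 62.9% of genes in that stratum had at least 1.

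**Figure D3:**
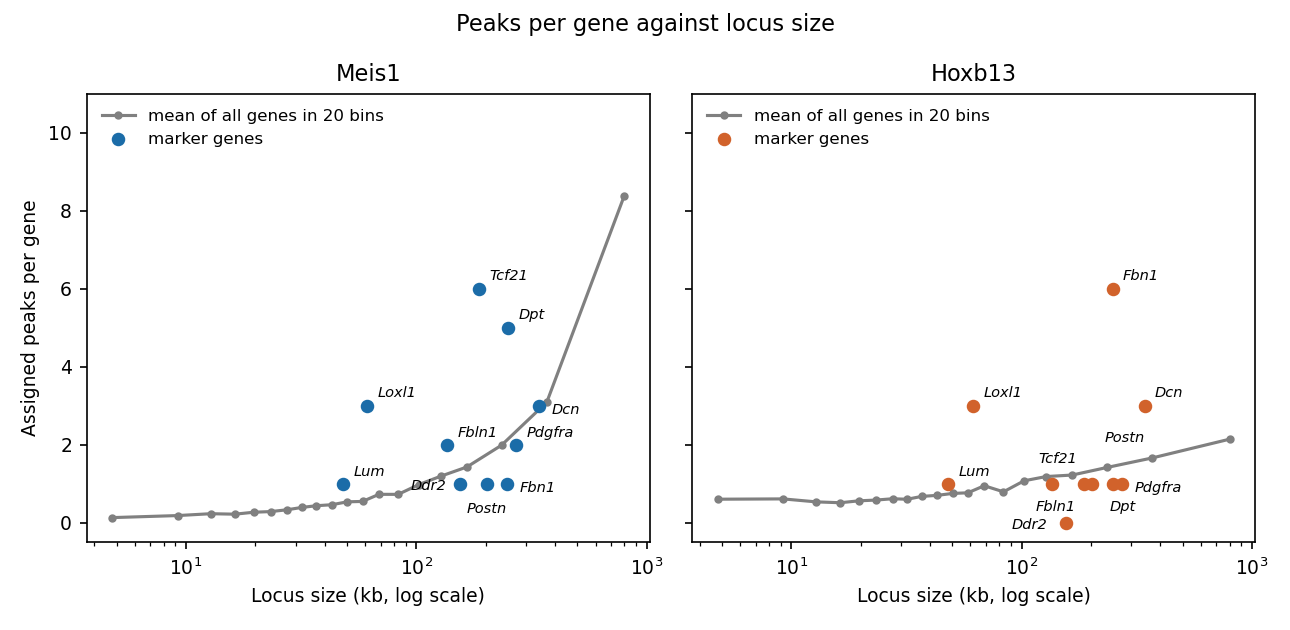
Assigned peaks per gene against locus size (kb, log axis) for Meis1 (left) and Hoxb13 (right), with the 10 marker genes as labelled points and the mean over all protein-coding genes in 20 size bins as a grey line. Tcf21, Dpt and Loxl1 lie farthest above the Meis1 line, and Fbn1, Loxl1 and Dcn farthest above the Hoxb13 line.

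The binding was also read over other genes of the matrix and its cells, from 8 lists of 74 genes that exclude the 10 markers. Of these 74, 48 had a Meis1 peak (64.9%) and 45 a Hoxb13 peak (60.8%), and 34 had both (45.9%). The corresponding shares of all protein-coding genes are the 38.2%, 44.4% and 23.9% given above. Collagen genes came closest to the markers, with a Meis1 peak at 11 of 12 and a Hoxb13 peak at 10 of 12. Col3a1, a fibrillar collagen with a locus of 308 kb, had 5 Meis1 and 3 Hoxb13 peaks. Col15a1 was the collagen without a Meis1 peak. Matricellular and adhesive genes had Meis1 peaks at 9 of 10 and Hoxb13 peaks at 7 of 10. Sparc, a collagen-binding matricellular gene with a locus of 67.5 kb, had 14 Hoxb13 peaks. Fn1, the fibronectin gene, had 0 of either factor in a locus of 324 kb.

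Families of the markers differed among themselves. The leucine-rich proteoglycan genes other than Dcn and Lum had Meis1 peaks at 2 of 9 (Fmod and Podn) and a Hoxb13 peak at 1 of 9 (Ogn), with 6 of 9 having none. Their median locus was 30.8 kb, smaller than those of Dcn and Lum. Elastic fibre and microfibril genes other than Fbln1 and Fbn1 had Meis1 peaks at 10 of 14 and Hoxb13 peaks at 9 of 14. Fbn2, the other fibrillin on that list, had 5 Meis1 peaks and 1 Hoxb13 peak, where Fbn1 had 1 and 6. Their loci were 406 and 248 kb. Of the lysyl oxidase genes other than Loxl1, Lox and Loxl4 had peaks of both factors, and Loxl2 and Loxl3 had none.

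The platelet-derived growth factor and discoidin receptor list held the related receptors Pdgfrb and Ddr1 and the ligands Pdgfa, Pdgfb, Pdgfc and Pdgfd. All 6 genes had an assigned Hoxb13 peak and 4 had an assigned Meis1 peak. The 22 Meis1 peaks lay at a median of 129 kb from the assigned start, and 4 of them were stronger than the median of all Meis1 peaks. Pdgfrb, the beta receptor, had 2 Hoxb13 peaks and 0 Meis1 peaks, and Ddr1 had 3 Meis1 and 2 Hoxb13 peaks. Pdgfd, a ligand, had 10 Meis1 peaks in a locus of 764 kb, where the median of all protein-coding genes was 46.5 kb. Transcription factors of mesenchymal and epicardial lineages had Meis1 peaks at 8 of 12 and Hoxb13 peaks at 6 of 12. Tbx18 had 8 Meis1 peaks in a locus of 550 kb, and Prrx1 had 7 in 185 kb. Genes of matrix turnover had Meis1 peaks at 2 of 7, Timp3 and Ctsk, and Hoxb13 peaks at 4 of 7.

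Markers of other cardiac cell types were counted in the same way. Cardiomyocyte markers had Meis1 peaks at 8 of 10 and Hoxb13 peaks at 10 of 10. Promoter peaks of Hoxb13 were present at 4 of 10 fibroblast genes and at 10 of 10 cardiomyocyte genes, and promoter peaks of Meis1 at 1 of 10 fibroblast genes and at 5 of 10 cardiomyocyte genes. Endothelial markers had 8 of 10 for Meis1 and 9 of 10 for Hoxb13, and smooth muscle and pericyte markers 4 of 10 and 8 of 10. Epicardial markers had 3 of 10 for each factor, and leukocyte markers 1 of 10 for Meis1 and 2 of 10 for Hoxb13. Wt1 is on both the epicardial list and that of mesenchymal factors. The median locus size was 195 kb for fibroblast markers, 35.0 kb for cardiomyocyte and 129 kb for endothelial markers. It was 44.5 kb for smooth muscle and pericyte, 33.7 kb for epicardial and 30.0 kb for leukocyte markers. Its part in the differences between lists was not tested.

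**Figure D4:**
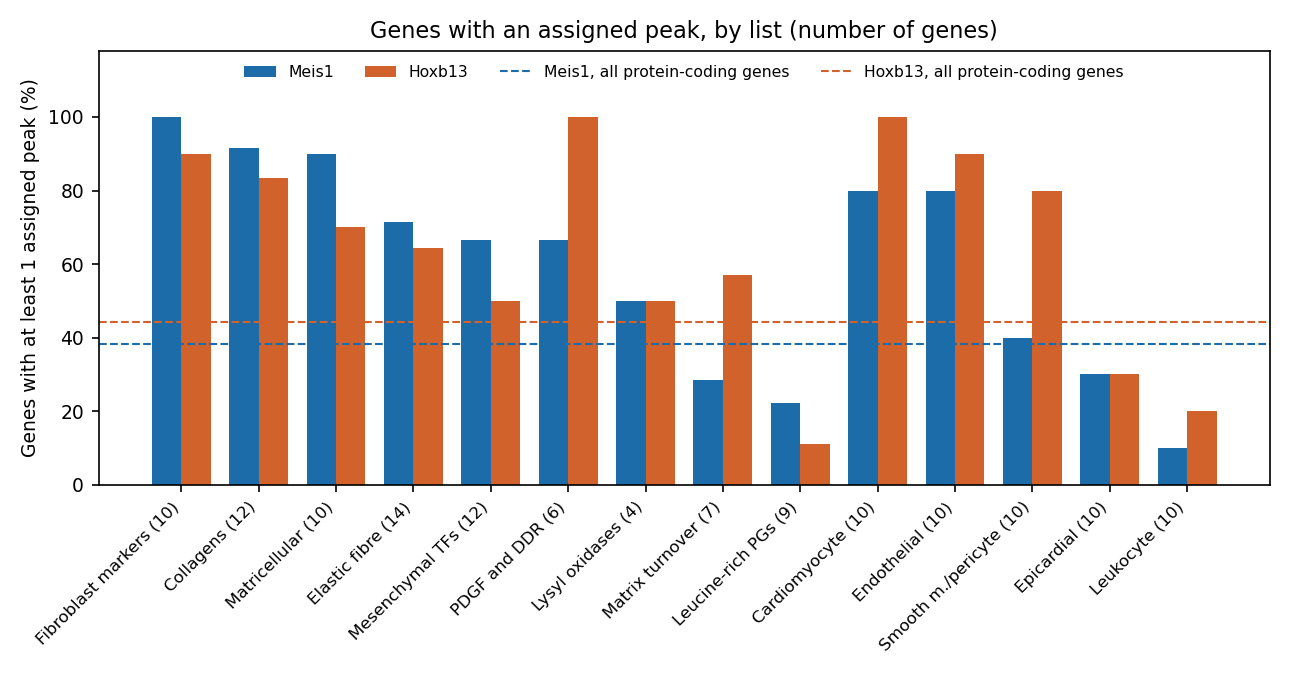
Percentage of genes in each list with at least 1 assigned Meis1 peak (blue) or Hoxb13 peak (orange), with the number of genes in parentheses and dashed lines at the shares of all protein-coding genes, 38.2% for Meis1 and 44.4% for Hoxb13. The fibroblast markers stand at 100% and 90.0%, and the leukocyte, epicardial and leucine-rich proteoglycan lists lie below both lines.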

How the data were processed

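Chromatin immunoprecipitation followed by sequencing was done on mouse ventricle with antibodies to Meis1 and Hoxb13. The submitters' processing notes name Bowtie2 2.2.3, Picard, ChIPseeker and deepTools 1.6, and the mm10 build. No source used here names the peak caller or its threshold, or says how libraries were combined. The authors deposited 1 annotated peak list per factor. Its signal value per peak, called strength, and a second score per peak have only column numbers, per the file headers, and were read by their place in the narrowPeak format. Positions, classes, distances and gene assignments are the deposited ones. Of Meis1 peaks 95.0% were 284 bp wide and of Hoxb13 peaks 98.8% were 396 bp wide, so Hoxb13 peaks meet a site more easily. Summits mostly fall at the peak's midpoint.

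Peaks were taken by gene symbol. Other genes were matched by Entrez number to a RefSeq table of GRCm38.p6, the same assembly as mm10, with 21887 protein-coding genes as background. Overlap required at least 1 bp. The overlap code was checked on simulated intervals. Python 3.11.15 with pandas 2.3.3 was used. No test was made, because there is no value per library. The markers and gene lists were chosen with earlier results of these data known, and all 10 markers are named in the text. Other genes are named where a count is 5 or fewer or next to a marker; Col3a1, Sparc, Fbn2, Pdgfd, Ddr1, Pdgfrb, Tbx18 and Prrx1 were picked after their values were seen.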

Additional observations from a re-analysis of the deposited data

How the results depend on the processing

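The count of genes with a Meis1 peak stayed at 10 in the stronger 50% of the list and with equal numbers of strongest peaks from each list, was 8 by peaks in the gene body or 10 kb on either side (39.1% of protein-coding genes), and was 5 with peaks within 10 kb of the start (19.5% of protein-coding genes), at Pdgfra, Dpt, Dcn, Fbn1 and Loxl1. The count for Hoxb13 was 4 in the stronger 50% of its list (29.7% of protein-coding genes), at Pdgfra, Dcn, Fbn1 and Loxl1, 8 within 10 kb of the start (35.8%), and 10 by gene body with 10 kb on either side (52.8%). Genes with both factors numbered 4 in the stronger 50% and 4 within 10 kb of the start. The share of all protein-coding genes with both factors was not computed at those settings, so these counts cannot be set against it. Of the 43 peaks, 23 were in the stronger 50%. The 2 overlapping pairs were still 2 with a gap of up to 1 kb allowed, and became 0 with summits within 100 bp and 0 with a reciprocal overlap of 50%, which the pair at Loxl1 missed at 49.7%. No paired analysis was possible because each list covers the 3 libraries of its factor with no value per library. For the same reason no library could be left out, and the depth of the libraries, which sets how many weak peaks are found, was unknown.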

Other observations

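Narrow peaks were uncommon in the Meis1 list, at 4.93% of peaks below the usual width of 284 bp, and they were strong, with a median strength of 107 against 18.4 for peaks of the usual width. The Meis1 peaks 25.8 kb upstream of Dpt and 117 kb from the start of Postn were the 2 narrow ones among the 25 at fibroblast markers, at 166 and 89 bp. All 18 Hoxb13 peaks at these genes had the usual width.

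Col8a1 and Col12a1, which encode non-fibrillar collagens, and Osr1 and Twist1, which encode mesenchymal transcription factors, had Meis1 peaks (6, 3, 6 and 2) and 0 Hoxb13 peaks. The loci of those 4 genes were 466, 581, 670 and 60.2 kb, where the median of all protein-coding genes was 46.5 kb. Meox1 and Meox2, homeobox genes of mesenchyme with loci of 97.0 and 312 kb, had 5 Hoxb13 peaks each and 0 Meis1 peaks. These genes were picked after their values were seen, and the difference between the factors at them was not tested.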
